A study of Drosophila melanogaster with 8 samples.

Results

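Midguts of larvae with 1 copy of the Pngl null allele Pngl[ex14] over the balancer CyO (Pngl+/-) were compared with midguts of y w larvae, which are wild type for Pngl, across all genes. The comparison uses 4 of the 8 RNA-seq libraries of the series, 2 of Pngl+/- and 2 of y w, chosen by their labels. Of the 17713 genes in the table, 7665 had enough reads to be tested. Every genotype is in the y w strain, mutant for yellow and white, and midguts were taken 96 hours after eggs were laid from larvae of the third instar, with males and females pooled. Pngl+/- larvae have the full genotype y w; Pngl[ex14]/CyOKr>GFP, and y w larvae have neither the allele nor the balancer. The other genotypes of the series, Pngl-/- and Pngl-/- with 1 copy of a Pngl duplication (Pngl Dp/+), entered the fit to estimate the spread. The allele, the balancer and any difference between the stocks all separate Pngl+/- from y w, so their parts cannot be told apart. Replicates are described as biological, and the p-values measure only the spread between these libraries.

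Pngl is the fly homologue of NGLY1, a cytosolic enzyme that removes N-linked sugar chains from misfolded glycoproteins before they are degraded. CyO is a rearranged copy of the second chromosome that blocks recombination and is marked by the dominant allele Curly and by recessive eye colour mutations. Kr>GFP is a transgenic marker that makes green fluorescent protein by way of Kruppel (Kr) regulatory sequence and lets balanced larvae be recognised. The larval midgut digests and absorbs food. Its enterocytes secrete proteases, lipases, glycosidases and lysozymes, it lines its lumen with a chitinous peritrophic matrix, and it is wrapped in visceral muscle.

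The libraries held 23812817 and 20989392 counts in Pngl+/-, and 20677050 and 24564935 in y w. Reads were found on 13125 and 12812 genes in Pngl+/-, and on 13810 and 13947 in y w. Genes of the mitochondrial genome took 11.7% and 10.7% of counts in Pngl+/-, and 7.20% and 6.60% in y w. The distance between libraries in log2 CPM over the tested genes was 19.6 between the Pngl+/- libraries, 11.9 between the y w libraries, and from 71.2 to 71.7 across the genotypes. All libraries carried the enterocyte gene nub and Myo31DF, whose CPM summed to 192 and 186 in Pngl+/- and to 157 and 160 in y w. CPM are counts scaled to a common library size with TMM factors, which correct for composition, and levels below are in this unit.

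The loci named in the labels were examined first. Pngl (FBgn0033050, chromosome 2R of dm6, 6017739 to 6020695) had 45.0 and 41.5 CPM in Pngl+/-, against 33.6 and 31.4 CPM in y w. The heterozygotes did not have less Pngl mRNA. The log2 fold change of 0.42 (standard error 0.06, adjusted p = 1.61e-05) fell short of the fold change of 1.5 that a call requires. The caspase gene Strica lies on the other strand and shares 385 bases of exon with it, and use of strand in counting is not given in the sources used here. Pngl averaged 57.5 CPM in Pngl-/-, so a count over the whole gene does not check the label.

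The white gene (w), which encodes an eye pigment transporter and in its mini form is the usual marker of fly transgenes, separated the genotypes. It had 71 and 59 counts in Pngl+/-, against 1 and 7 counts in y w. Outside the comparison, w had 1 and 0 counts in Pngl-/- and 30 and 42 in Pngl Dp/+, which carries a transgene. The gene fell below the filter on low counts, and with the filter lowered to a CPM of 1 its log2 fold change was 4.42 (adjusted p = 1.98e-07). Whether the CyO chromosome used here carries a w marker is not stated in the labels. Kr, the gap gene named in the balancer's Kr>GFP marker, had 22.2 and 21.1 CPM in Pngl+/-, against 12.1 and 11.5 CPM in y w. This is a log2 fold change of 0.88 (standard error 0.07, adjusted p = 4.68e-08). Kr averaged 10.4 CPM in Pngl-/- libraries and 10.3 CPM in Pngl Dp/+ libraries, neither of which has the balancer, and both Pngl+/- libraries lay above these means.

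Duox encodes the NADPH oxidase in which the Curly mutation lies. It had 3.12 and 2.68 CPM in Pngl+/-, against 6.13 and 4.47 CPM in y w, a log2 fold change of −0.85 (standard error 0.18, adjusted p = 0.000688). With the trend of fold change on exonic length removed, which is described below, its log2 fold change was −0.46 and it was no longer called. Purple (pr), a pteridine synthesis gene mutant on most CyO chromosomes, had 18.9 and 17.6 CPM in Pngl+/-, against 20.9 and 19.7 CPM in y w, and was not called (log2 fold change −0.15, adjusted p = 0.0648). Cinnabar (cn), an enzyme of brown eye pigment synthesis, had 5 and 18 counts in Pngl+/- and 2 counts in each y w library, below both filters on low counts. In the fit with no filter cn had a log2 fold change of 2.95 (standard error 0.70, adjusted p = 8.43e-05), and an antisense RNA overlaps its exons by 1229 bases. Yellow (y), a pigmentation gene, had 13 and 14 counts in Pngl+/- and 8 and 7 in y w.

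**Figure D1:**
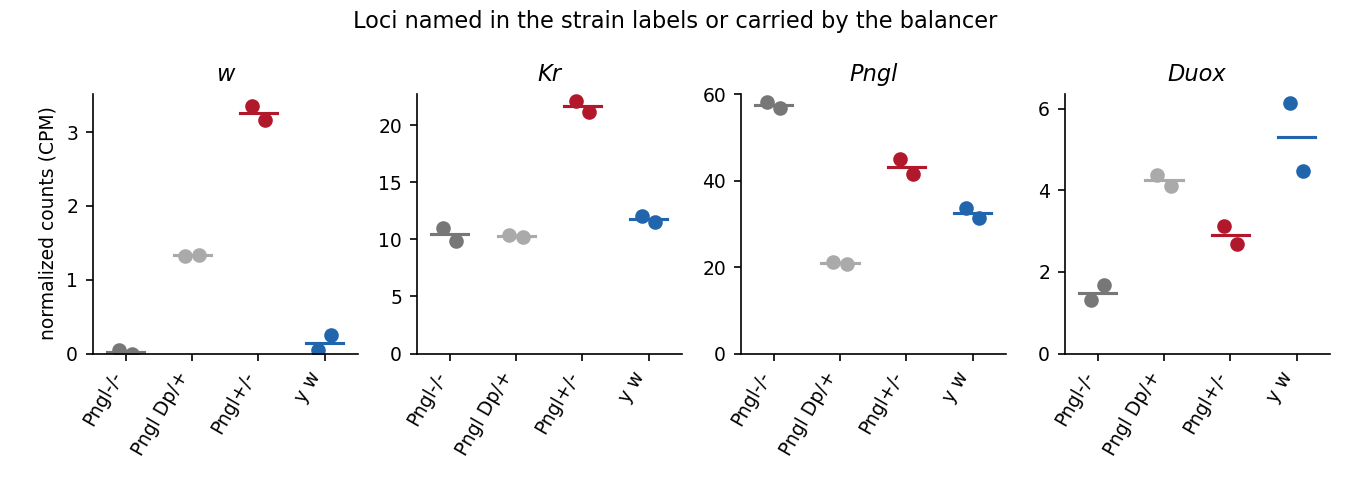
Normalized counts (CPM, y axes) of w, Kr, Pngl and Duox in each of the 8 libraries, by genotype. Points are libraries and bars their mean; w is at 3.36 and 3.17 CPM in Pngl+/- and at 0.042 and 0.252 CPM in y w, and Duox at 3.12 and 2.68 CPM in Pngl+/- and at 6.13 and 4.47 CPM in y w.

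Across all tested genes, 998 rose and 1345 fell in Pngl+/- relative to y w. A call required edgeR's quasi-likelihood test to give an adjusted p (Benjamini-Hochberg) no larger than 0.05, and the change to reach 1.5-fold. These are 30.6% of tested genes, 13.0% higher and 17.5% lower. In 2341 of the 2343 called genes both Pngl+/- libraries lay beyond both y w libraries, but this also held for 85.1% of all tested genes, 42.3% with Pngl+/- higher and 42.8% with Pngl+/- lower. The changes were often small. A further 3134 genes passed the adjusted p without reaching the fold, and the median size of the log2 fold change over all genes was 0.36. At least 2-fold changes were called in 391 higher and 598 lower genes, and at least 8-fold changes in 40 higher and 41 lower genes.

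The balance of higher and lower genes depended on the scaling. Higher genes made up 42.6% of calls with TMM factors from the tested genes. Without composition normalization they made up 14.4% (447 higher, 2657 lower), and the median of all genes moved to −0.36. With TMM factors from all genes they made up 56.1% (1364 higher, 1066 lower), and the median of all genes moved to 0.12. Directions below are relative to the TMM factors of the tested genes, and a list's median is read against these shifts.

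**Figure D2:**
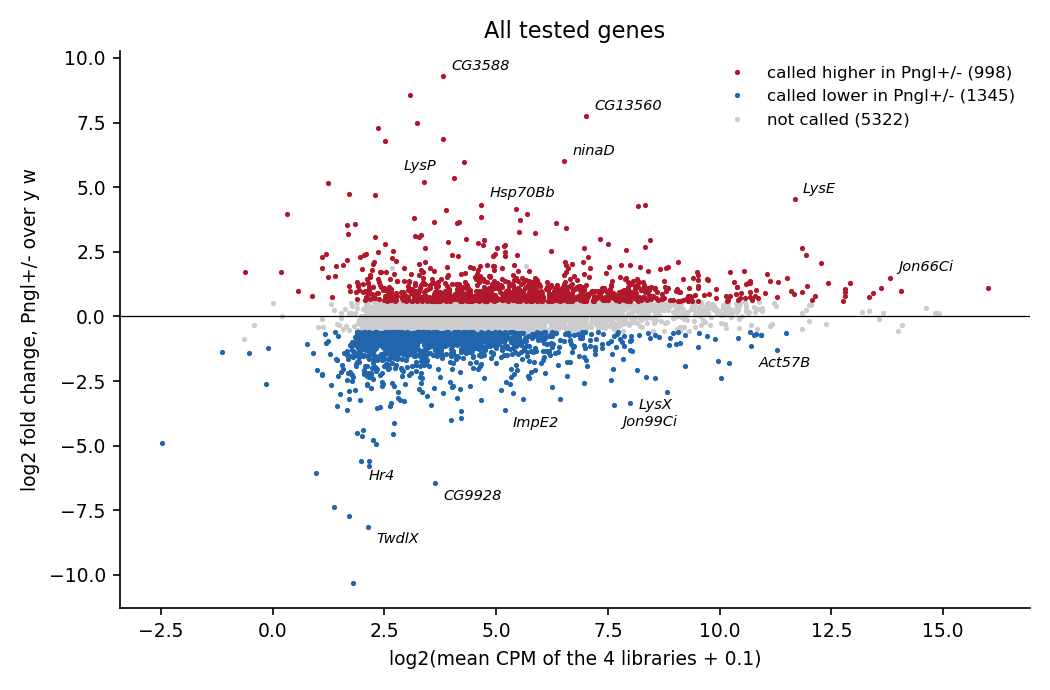
Log2 fold change of Pngl+/- over y w (y axis) against log2 of the mean CPM of the 4 libraries plus 0.1 (x axis) for the 7665 tested genes. Red points are the 998 genes called higher, blue points the 1345 called lower, and grey points those not called; the labelled lysozyme gene LysE lies far above genes of like level.

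Fold changes followed the length of the genes' exons. In the shortest eighth of genes (exons of up to 875 bases), 30.3% were higher and 11.6% lower in Pngl+/-, with a median log2 fold change of 0.33. In the longest eighth (from 5204 bases), 1.68% were higher and 48.8% lower, with a median of −0.57. The median fell in every bin between them, and Spearman's rho of fold change and length was −0.45 over 7604 genes, which are not independent replicates. Both Pngl+/- libraries showed it: relative to the y w mean, their shortest genes had medians of 0.31 and 0.35 and their longest genes −0.58 and −0.56, while the y w libraries differed from each other by under 0.01. The same medians were 0.42 and 0.43 against −0.87 and −0.88 in Pngl-/-, and 0.15 and 0.14 against −0.12 and −0.12 in Pngl Dp/+. What the trend comes from was not tested.

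A fit with this trend removed from every library, chosen after seeing the data, called 846 higher and 1013 lower genes, 24.3% of those tested (11.0% higher, 13.2% lower). Of the calls above, 686 higher and 868 lower genes were kept, and none was called in the opposite direction. Counts of calls with the trend removed are given beside the gene groups below. The shares over all tested genes to set beside them are 13.0% higher and 17.5% lower as fitted, and 11.0% and 13.2% with the trend removed.

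**Figure D3:**
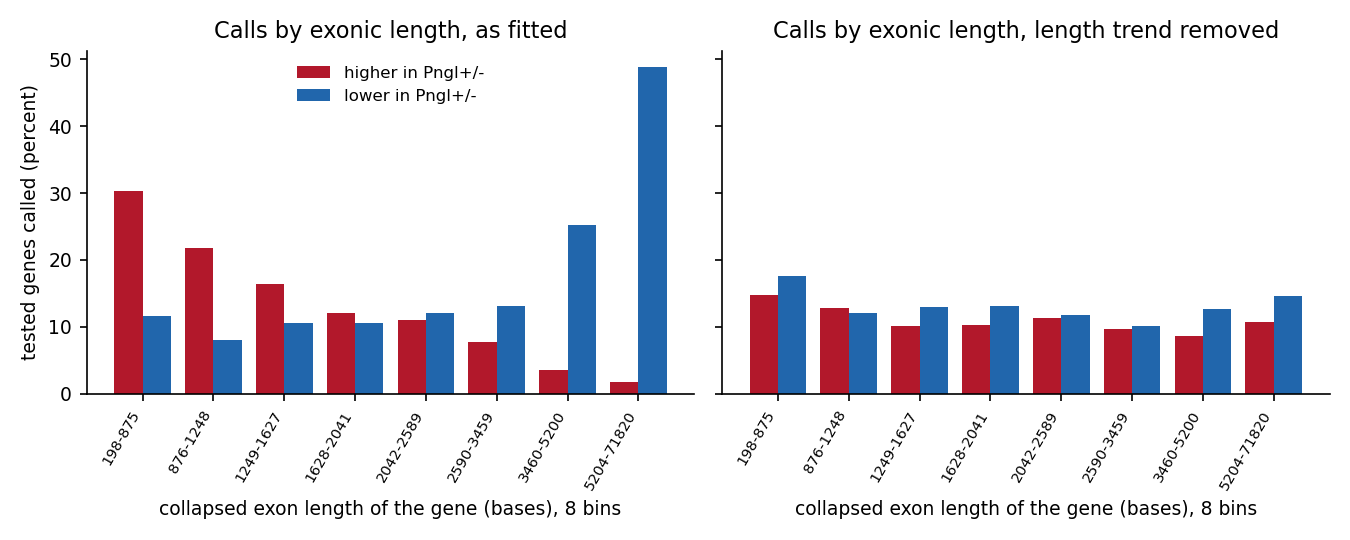
Percent of tested genes called higher (red) and lower (blue) in Pngl+/- than in y w, by 8 bins of exonic length in bases, as fitted (left) and with the length trend removed (right). As fitted, the share of lower genes is 11.6% in the shortest bin and 48.8% in the longest.

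The balanced second chromosome did not have the highest share of called genes. On chromosome 2, 30.0% of 2931 tested genes were called, on chromosome 3, 32.4% of 3363, and on the X 25.0% of 1231. By arm the shares were 29.1% on 2L, 30.8% on 2R, 34.0% on 3L and 31.2% on 3R. Calls of at least 8-fold fell on 0.955% of tested genes of chromosome 2, 1.22% of chromosome 3 and 0.975% of the X. On the small chromosome 4, 28 of 65 tested genes were lower and 2 higher, with a median log2 fold change of −0.47. Its genes are long, with a median exonic length of 4407 bases against 1950 on 3R, and with the length trend removed 14 were lower and 2 higher, with a median of −0.20.

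Neighbouring genes changed together in several places, picked out after their values were seen. The longest run was of 10 adjacent tested genes on 3R, from CG34278 to CG5246 (17120465 to 17137195 of dm6), all higher in Pngl+/- with log2 fold changes from 0.72 to 2.04. A run of 6 genes on 3L that holds the small heat shock genes Hsp67Ba, Hsp23 and Hsp27 was lower, from −1.30 to −0.82. A run of 5 on 3L with the larval cuticle genes Lcp65Ag1, Lcp65Ag2, Lcp65Ag3 and Lcp65Af was lower, from −2.22 to −1.16. A run of 5 at the end of chromosome 4, from CR32011 to ci (cubitus interruptus, the effector of Hedgehog signalling), was lower, from −1.45 to −0.88. On that chromosome 28 of 65 tested genes were lower. With the length trend removed, 8 of the 10, all 6, all 5 and 4 of the 5 genes of these runs, in the order given, were still called. How often runs of this length arise from the share of called genes alone was not tested.

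Some genes were nearly silent in y w and well expressed in Pngl+/-. CG13560 (chromosome 2R, 23747560 to 23748477) had 231 and 279 CPM in Pngl+/-, against 1.01 and 1.33 CPM in y w, a log2 fold change of 7.75 (standard error 0.16, adjusted p = 4.7e-15). The scavenger receptor gene ninaD, which takes up dietary carotenoids in the midgut, had 181 CPM in both Pngl+/- libraries, against 2.73 and 2.85 CPM in y w (log2 fold change 6.02, standard error 0.07, adjusted p = 9.04e-18). CG3588 had 569 and 539 counts in Pngl+/-, against 2 and 0 counts in y w, a ratio of 718 with an exact 95% counting interval of 198 to 5933. The long noncoding RNA CR44316 had 402 and 266 counts in Pngl+/-, against 1 count in each y w library, a ratio of 433 (119 to 3580). The 2 groups did not overlap for any of these genes. These intervals cover counting error only.

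Further genes of this kind were CG14419, with 376 and 360 counts in Pngl+/- against 2 and 3 in y w, and mthl8, a methuselah-like receptor, with 217 and 180 against 1 and 2. CG10081 had 250 and 196 counts in Pngl+/- against 3 and 2 in y w. Klp54D, a kinesin-like motor, had 93 and 82 counts in Pngl+/- against 0 and 6 in y w. Most were also above y w in the other genotypes: CG13560 averaged 311 CPM in the Pngl-/- libraries and 69.7 CPM in those of Pngl Dp/+. The means of ninaD were 121 CPM in the Pngl-/- libraries and 65.3 CPM in the Pngl Dp/+ libraries. CG14752 was the exception among the 12 largest rises. It had 27.4 and 28.1 CPM in Pngl+/-, against 0.294 and 0.180 CPM in y w, and its mean was 0.153 CPM in Pngl-/- libraries and 0.0221 CPM in Pngl Dp/+ libraries.

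Other genes were expressed in y w and nearly silent in Pngl+/-. With at most 3 counts in each library of one genotype and at least 50 in each of the other, 10 genes were near silent in Pngl+/- and 7 in y w. CG9822 had no counts in either Pngl+/- library, against 166 and 183 counts in y w, and was at least 44.8-fold lower, taking 3 counts per library as the floor. The Tweedle cuticle gene TwdlX had 0 and 1 counts in Pngl+/-, against 195 and 249 in y w, and Achl 0 and 1 counts against 156 and 171. CG14664 had 1 and 0 counts in Pngl+/- against 117 and 140 in y w, and the cathepsin L-like gene CtsL3 1 count in each Pngl+/- library against 86 and 104. Outside the comparison these genes differed. CG9822 and CG14664 had at most 2 counts in any Pngl-/- or Pngl Dp/+ library. TwdlX had 4 and 2 counts in Pngl-/- and 71 and 88 in Pngl Dp/+, and Achl 0 and 1, and 61 and 92. CtsL3 had 212 and 234 counts in Pngl-/- and 371 and 535 in Pngl Dp/+. The C/EBP transcription factor slbo had 5 and 2 counts in Pngl+/- against 195 and 250 in y w, and the fibrillin-related gene frac 8 and 5 against 214 and 249. CG9928 had 0.142 and 0.429 CPM in Pngl+/-, against 23.2 and 25.5 CPM in y w (log2 fold change −6.44, standard error 0.22, adjusted p = 1.15e-12). CG32071 met the rule through its level in Pngl Dp/+ only, with no counts in Pngl+/- and 5 and 3 in y w. No fold is given for it, and its call was lost when any of 3 of the 4 libraries was left out.

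Digestive genes moved in both directions within each family, where 13.0% of all tested genes were higher and 17.5% lower. Lysozymes of the larval midgut break down bacterial walls in the food, and of 7 tested, 3 were higher and 3 lower in Pngl+/- (also 3 and 3 with the length trend removed, when the median was −0.25 in place of 0.12). LysE (chromosome 3L, 1212827 to 1213406) had 6250 and 6321 CPM in Pngl+/-, against 264 and 272 CPM in y w, a log2 fold change of 4.55 (standard error 0.05, adjusted p = 9.04e-18). LysP had 33.3 and 31.5 CPM in Pngl+/-, against 0.756 and 0.829 CPM in y w, a log2 fold change of 5.34 (standard error 0.12). LysD, the most abundant family member in Pngl+/-, had 16677 and 17766 CPM in Pngl+/-, against 7650 and 8274 CPM in y w (1.11, standard error 0.06). In contrast, LysX had 44.8 and 47.4 CPM in Pngl+/-, against 457 and 473 CPM in y w (−3.34, standard error 0.06). LysC had 484 and 451 CPM in Pngl+/- and 1486 and 1560 CPM in y w, and LysS 1364 and 1503 CPM in Pngl+/- and 3192 and 3899 CPM in y w, 2 of the 6 largest falls in CPM among called genes. Summed over the family, the level was 38198 and 39777 CPM in Pngl+/-, against 25069 and 27224 CPM in y w. Several members are near-identical copies, so reads may be split between them.

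Of 29 tested Jonah and trypsin-like serine proteases, which cut dietary protein, 10 were higher and 3 lower, with a median log2 fold change of 0.29 (7 and 4, with a median of 0.03, once the length trend was removed). Jon66Ci rose to 20503 and 21852 CPM in Pngl+/-, against 7208 and 7772 CPM in y w (log2 fold change 1.4995, standard error 0.06). Jon66Cii had 6202 and 6383 CPM in Pngl+/-, against 1000 and 1006 CPM in y w (2.65, standard error 0.05). Jon99Fii (2.36, standard error 0.04) and betaTry (2.06, standard error 0.05) rose as well. Jon99Ci fell to 33.6 and 34.3 CPM in Pngl+/-, against 369 and 361 CPM in y w, and the other lower members were SPH93 (−3.16) and Try29F (−2.61). Jon99Cii, named after its values were seen, had 13011 and 13347 CPM in Pngl+/-, against 19086 and 19797 CPM in y w, and at −0.56 it did not reach the fold for a call, which it did with the length trend removed (−0.86). Jon44E, a Jonah gene that the list does not hold and that is named for its fall in CPM, had 334 and 340 CPM in Pngl+/-, against 1735 and 1775 CPM in y w (−2.38, standard error 0.04). The summed level of the family was the highest of all lists, with 218270 and 228220 CPM in Pngl+/-, against 171840 and 180800 CPM in y w. Ag5r2, an antigen 5-related secreted protein, was also among the 6 largest rises in CPM of called genes, with 11169 and 10958 CPM in Pngl+/-, against 4531 and 4436 CPM in y w.

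**Figure D4:**
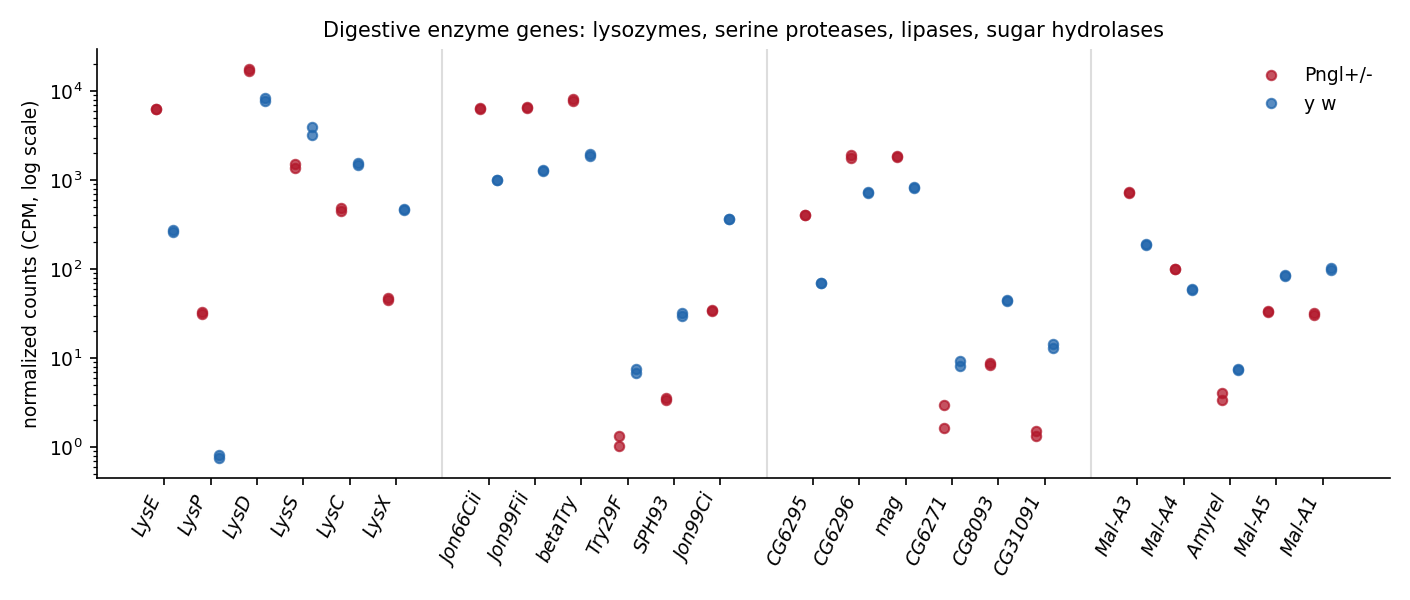
CPM on a log scale of digestive enzyme genes in the Pngl+/- libraries (red, left of each pair) and the y w libraries (blue, right), 2 points each, for lysozymes, serine proteases, lipases and sugar hydrolases. Within each of the 4 families some genes are higher and others lower in Pngl+/-, as LysE (6250 and 6321 CPM against 264 and 272) and LysX (44.8 and 47.4 CPM against 457 and 473).

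Lipases were split by level. Of 16 tested, 4 were higher and 6 lower (4 and 5 with the length trend removed). CG6295 had 409 and 406 CPM in Pngl+/-, against 69.6 and 69.2 CPM in y w (log2 fold change 2.55, standard error 0.04). CG6296 had 1912 and 1746 CPM in Pngl+/-, against 729 and 714 CPM in y w (1.34, standard error 0.05), and magro (mag), which digests dietary triglyceride and sterol esters, 1879 and 1807 CPM in Pngl+/-, against 839 and 816 CPM in y w (1.16, standard error 0.04). The 3 largest falls were in scarce transcripts. CG31091 had 1.51 and 1.34 CPM in Pngl+/- and 14.5 and 13.1 CPM in y w, CG8093 8.74 and 8.48 CPM in Pngl+/- and 45.0 and 43.9 CPM in y w, and CG6271 1.65 and 3.00 CPM in Pngl+/- and 9.24 and 8.22 CPM in y w. The summed level of the family was 4502 and 4251 CPM in Pngl+/-, against 1948 and 1899 CPM in y w.

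Of 14 tested maltases, amylases and related sugar hydrolases, 3 were higher and 6 lower, with a median log2 fold change of −0.35 (3 and 7, with a median of −0.37, once the length trend was removed). Mal-A3 rose to 717 and 740 CPM in Pngl+/-, against 188 and 194 CPM in y w. Mal-A1 fell to 31.8 and 30.4 CPM in Pngl+/-, against 103 and 98.5 CPM in y w, and Mal-A5 to 34.2 and 33.4 CPM, against 86.3 and 84.4 CPM in y w. Both near-identical amylase genes, named after their values were seen, were lower (Amy-d −0.98 and Amy-p −0.69). The summed level of these sugar hydrolases was 1568 and 1611 CPM in Pngl+/-, against 1359 and 1412 CPM in y w. Of 10 Niemann-Pick C genes of sterol uptake, 4 were higher and 1 lower (2 and 1 with the length trend removed). Npc2d led, with 267 and 271 CPM in Pngl+/- against 81.9 and 86.6 CPM in y w (1.67, standard error 0.04), and Npc2e was the lower member (−0.63, standard error 0.05).

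Lipid synthesis and storage genes (15 tested) gave 4 higher and 2 lower, and 6 and 1 with the length trend removed, when their median was 0.55 in place of 0.25. Lsd-1, a perilipin that coats lipid droplets, had 352 and 343 CPM in Pngl+/-, against 128 and 125 CPM in y w (log2 fold change 1.46, standard error 0.04). Gpat4, which starts glycerolipid synthesis, and ACC, which makes malonyl-CoA for fatty acid synthesis, both rose by 0.81. The lipoprotein genes Apoltp (−1.78) and apolpp (−0.75), whose products carry lipid in the circulation, were lower. Once the length trend was removed Apoltp was at −0.915 and still called, and apolpp was at 0.05. Of 12 fatty acid oxidation genes 5 were higher and none lower (2 and 0 with the trend removed), led by scu (0.86), yip2 (0.71) and Echs1 (0.69). Of 6 markers of the fat body, the main lipid store, 4 were higher and 2 lower, as given below.

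Respiratory genes rose together. Of 64 tested nuclear genes of the respiratory chain, 54 were higher in Pngl+/- and none lower, against 13.0% of all tested genes higher, and all 64 had a positive log2 fold change, from 0.35 to 1.45 with a median of 0.81. These genes are short, with a median exonic length of 880 bases. With the length trend removed, 33 were higher and none lower, with a median of 0.60, and without composition normalization the median was 0.45. All 5 complexes had called members: 25 of 32 NADH dehydrogenase genes, all 4 succinate dehydrogenase genes, 7 of 8 of cytochrome bc1, all 8 of cytochrome oxidase and 10 of 11 of ATP synthase were higher. COX5A, a cytochrome oxidase subunit, had 822 and 870 CPM in Pngl+/-, against 279 and 341 CPM in y w (1.45, standard error 0.09), ND-B14, of NADH dehydrogenase, 89.3 and 86.4 CPM in Pngl+/-, against 36.9 and 36.4 CPM in y w (1.26, standard error 0.04), and SdhC 261 and 271 CPM in Pngl+/-, against 117 and 116 CPM in y w (1.19, standard error 0.04).

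The protein genes of the mitochondrial genome moved the same way, with 9 of 10 tested higher and none lower (5 and 0 with the length trend removed). mt:CoI had 14587 and 14224 CPM in Pngl+/-, against 7778 and 7493 CPM in y w (log2 fold change 0.92, standard error 0.04). mt:lrRNA, the large ribosomal RNA of the mitochondrion, had the largest rise of all genes in CPM, to 96098 and 84750 in Pngl+/-, against 43042 and 40504 in y w. Mitochondrial ribosomal proteins, which are encoded in the nucleus, moved little: 7 of 71 were higher, with a median of 0.32 that became 0.00 once the length trend was removed, when 0 were higher and 1 lower. Of 19 subunits of the vacuolar ATPase, the proton pump of acidic compartments and of the acid-secreting copper cells, 7 were higher and none lower (6 and 0 with the trend removed), led by Vha14-1 (1.03), Vha13 (0.98) and Vha36-1 (0.97). Among 14 glycolytic genes, Pgi was higher (0.74), and Ldh (−0.90) and Ald1 (−0.73) were lower. With the length trend removed 2 were higher and 1 lower, and Ald1, at −0.51, was not called.

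**Figure D5:**
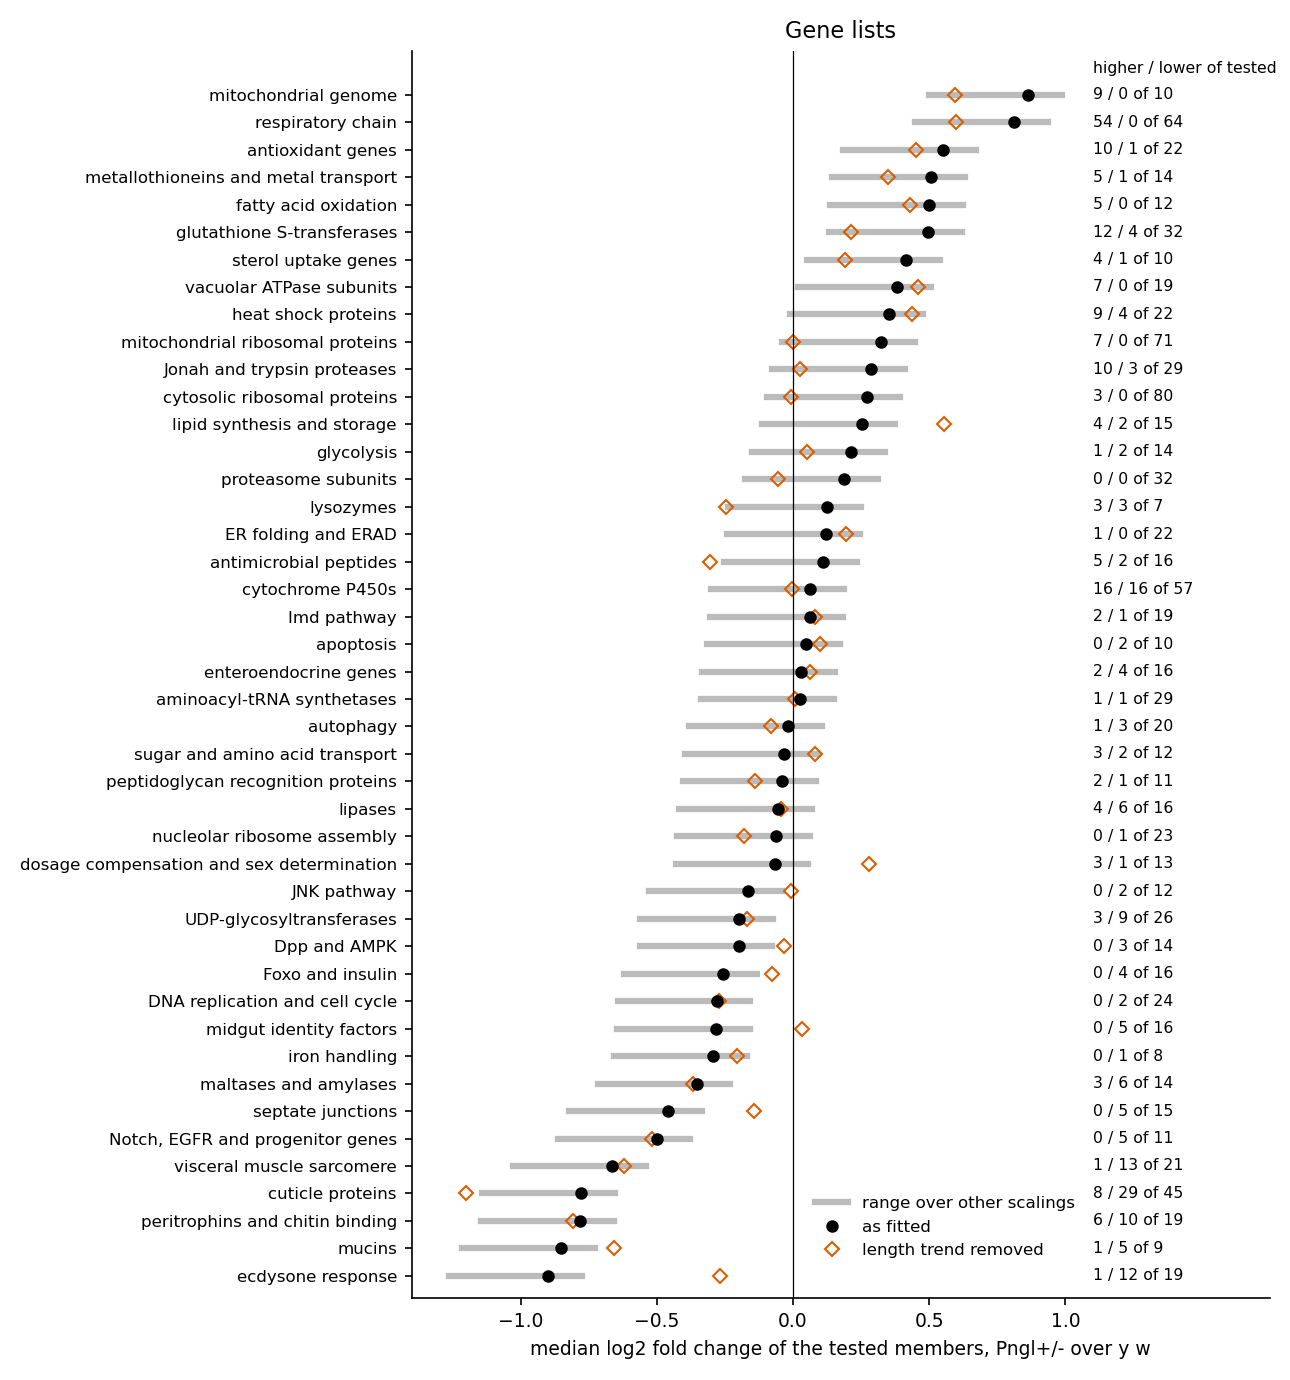
Median log2 fold change of Pngl+/- over y w (x axis) of the tested members of each gene list with at least 7 of them, as fitted (black points) and with the exonic length trend removed (orange diamonds). Grey bars span the medians under the other scalings, and the numbers at the right count members called higher and lower; respiratory chain genes lie at 0.81 and cuticle proteins at −0.78 as fitted.

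Among antioxidant and glutathione genes, more were called higher than lower. Of 22 tested antioxidant genes, 10 were higher and 1, Duox, was lower, with a median log2 fold change of 0.55 (8 and 0, with a median of 0.45, once the length trend was removed). The peroxiredoxin Prx6b had 63.3 and 61.9 CPM in Pngl+/-, against 11.0 and 11.3 CPM in y w (2.49, standard error 0.06). Zw (1.21, standard error 0.06) and Pgd (1.16, standard error 0.07), both NADPH-forming enzymes of the pentose phosphate pathway, rose. So did, as named after their values were seen, both subunits of the enzyme that starts glutathione synthesis, Gclc (1.16) and Gclm (1.04). Sod1 (0.62) and Sod2 (0.71), also named afterwards, were called as fitted but not with the length trend removed.

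Glutathione S-transferases, which conjugate glutathione to toxic compounds, gave 12 higher and 4 lower of 32 (7 and 4 with the length trend removed). GstD1 had 1068 and 1055 CPM in Pngl+/-, against 402 and 398 CPM in y w (log2 fold change 1.41, standard error 0.04), and GstD3 54.8 and 54.6 CPM in Pngl+/-, against 15.4 and 14.6 CPM in y w (1.87, standard error 0.06). In the delta class 5 of 10 were higher, while GstD5 (−2.28) and GstD8 (−1.08) were lower. With the trend removed 2 of the class were higher and 2 lower. In the epsilon class 5 of 11 were higher and none lower (4 and 0 with the trend removed). The other classes gave 2 higher and 2 lower of 11 (1 and 2 with the trend removed). Over all tested genes 13.0% were higher and 17.5% lower. Cytochrome P450s, oxidases of hormones and toxins, were evenly split, with 16 higher and 16 lower of 57 both as fitted and with the trend removed. Cyp12c1 had 61.9 and 63.3 CPM in Pngl+/-, against 9.83 and 8.94 CPM in y w (2.74, standard error 0.06). Cyp4g1, the oenocyte enzyme of cuticular hydrocarbon synthesis, had 4.63 and 4.94 CPM in Pngl+/-, against 45.6 and 45.0 CPM in y w (−3.24, standard error 0.07). UDP-glycosyltransferases gave 3 higher and 9 lower of 26, the same with the trend removed. Ugt35C1 fell to 1.61 and 2.09 CPM in Pngl+/-, against 29.7 CPM in both y w libraries.

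Of 14 metallothionein and metal transport genes, 5 were higher and 1 lower (6 and 1 with the length trend removed). The metallothioneins MtnA, MtnB and MtnD, which bind copper and zinc, rose together by log2 fold changes of 1.28, 1.32 and 1.32, and MtnA reached 2098 and 2391 CPM in Pngl+/-, against 873 and 971 CPM in y w. MtnC fell by 1.70 at a low level, 2.505 and 2.15 CPM in Pngl+/- against 7.73 and 7.42 CPM in y w. Heat shock genes split by kind. All 6 Hsp70 copies were higher, from 3.09 to 4.30, led by Hsp70Bb with 49.4 and 46.7 CPM in Pngl+/-, against 2.27 and 2.59 CPM in y w. Their sequences are nearly identical, so the copies cannot be counted as separate observations. Of 5 tested small heat shock genes, 4 were lower, among them Hsp23, with 102 and 97.0 CPM in Pngl+/-, against 231 and 233 CPM in y w (−1.22, standard error 0.04). Both sets of calls held with the length trend removed.

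Peritrophin and chitin genes moved in both directions. Of 19 tested, 6 were higher and 10 lower, the same counts with the length trend removed. This list also holds cuticle genes such as obst-E, so its counts are not those of the peritrophic matrix alone. Its summed level was 5722 and 5573 CPM in Pngl+/-, against 2661 and 2641 CPM in y w. Peritrophin-15a, a chitin-binding protein of the peritrophic matrix, had 3629 and 3628 CPM in Pngl+/-, against 1460 and 1448 CPM in y w (log2 fold change 1.32, standard error 0.04). The chitinase gene Cht9 had 358 and 350 CPM in Pngl+/-, against 88.3 and 91.1 CPM in y w (1.98, standard error 0.04). obst-I had 149 and 150 CPM in Pngl+/-, against 11.6 and 12.7 CPM in y w (3.62, standard error 0.06). An antisense RNA overlaps obst-I over 703 bases, and another overlaps Cht9 over 893. Lower members included the chitinases Cht5 (−3.001) and Cht6 (−2.62) and the cuticle chitin-binding gene obst-E (−1.78).

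Of 9 tested mucins, glycoproteins of mucous and matrix layers, 5 were lower and 1 higher, also with the length trend removed. Muc11A had 113 and 127 CPM in Pngl+/-, against 593 and 668 CPM in y w (log2 fold change −2.39, standard error 0.07). Muc68E (−2.14) and Muc68Ca (−1.35) were lower too, and both are long genes, at −1.71 and −0.66 once the trend was removed. Muc55B was the higher member and the most abundant, with 5176 and 4538 CPM in Pngl+/-, against 2549 and 2465 CPM in y w, so that the summed mucin level was 7765 and 6838 CPM in Pngl+/-, against 6477 and 6485 CPM in y w.

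Cuticle protein genes, which are expressed by epidermis and by the ectodermal fore- and hindgut and trachea, were lower as a list: 29 of 45 tested were lower and 8 higher, with a median of −0.78. These genes are short, so the length trend runs against the fall, and with it removed 33 were lower and 5 higher, with a median of −1.20. Lcp3 had 541 and 514 CPM in Pngl+/-, against 1842 and 1851 CPM in y w (log2 fold change −1.81, standard error 0.04). Lcp2 had 109 CPM in both Pngl+/- libraries, against 548 CPM in both y w libraries (−2.33, standard error 0.04). TwdlO had 3.17 and 3.27 CPM in Pngl+/-, against 23.5 and 25.9 CPM in y w (−2.94, standard error 0.10). Lcp65Ae (2.17), Cpr56F (1.15) and Lcp65Ac (1.12) were the largest rises. The median exonic length of the tested members was 730 bases. In bulk tissue, fewer cells of a type and less RNA per cell cannot be told apart.

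Visceral muscle genes were lower. Of 21 tested sarcomere genes 13 were lower and 1 higher (12 and 1 with the length trend removed), with a median of −0.66. Act57B, a muscle actin, had 1027 and 1037 CPM in Pngl+/-, against 2265 and 2290 CPM in y w (log2 fold change −1.14, standard error 0.04, adjusted p = 3.71e-13). The giant proteins bt (−2.34), sls (−1.80) and Obsc (−1.59) fell furthest as fitted, but their exons span 28019, 58996 and 13261 bases, and with the trend removed they were at −1.08, −0.12 and −0.73, sls no longer called. The calcium sensor TpnC25D was the higher member (0.85, standard error 0.04).

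Genes of the response to ecdysone, the steroid that times moults, were lower in most cases: 12 of 19 tested were lower and 1 higher, with a median of −0.90. Over all tested genes 17.5% were lower and 13.0% higher. The tested members are long, with a median exonic length of 5149 bases, and in the longest eighth of all genes 48.8% were lower. With the length trend removed 8 were lower and 1 higher, with a median of −0.27. Whether their share exceeds that of genes of like length was not tested. The nuclear receptor Hr4 had 0.236 and 0.0537 CPM in Pngl+/-, from 5 and 1 counts, against 7.81 and 7.17 CPM in y w, a ratio of 49.5 in counts (exact 95% interval 22.6 to 136). ImpE2, an ecdysone-inducible gene of imaginal discs, had 5.58 and 5.42 CPM in Pngl+/-, against 64.9 and 69.9 CPM in y w (log2 fold change −3.61, standard error 0.08), and ImpE1 0.898 and 0.751 CPM in Pngl+/-, against 9.2005 and 9.91 CPM in y w (−3.52, standard error 0.18). The early genes br (−1.35) and Eip75B (−0.95), named after their values were seen, were called as fitted and not once the trend was removed, when they were at −0.27 and −0.08. The steroid synthesis gene sad was the higher member (1.03, standard error 0.13), at 9.78 and 12.02 CPM in Pngl+/- against 4.96 and 5.59 CPM in y w.

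As fitted, the lists of signalling and patterning genes, most at low levels, had more lower than higher members. Of all tested genes 17.5% were lower and 13.0% higher, and in the longest eighth 48.8% were lower. The insulin, Dpp and septate junction lists hold long genes, with median exonic lengths of 4445, 3659 and 5137 bases. Whether their shares exceed those of genes of like length was not tested. Of 11 Notch, EGFR and progenitor genes 5 were lower and none higher, also with the length trend removed. Sox21a, a progenitor transcription factor, had 2.27 and 2.41 CPM in Pngl+/-, against 5.80 and 5.01 CPM in y w (log2 fold change −1.20, standard error 0.16). N, the Notch receptor, was at −1.18, and at −0.45 and not called once the trend was removed. Among 16 insulin and Foxo genes 4 were lower and none higher (3 and 1 with the trend removed). The insulin-like peptide gene Ilp3 had 4.21 and 4.61 CPM in Pngl+/-, against 22.9 and 21.9 CPM in y w (−2.34, standard error 0.09), and the insulin receptor InR 2.93 and 3.595 CPM in Pngl+/-, against 10.6 and 9.95 CPM in y w (−1.66, standard error 0.13). With the trend removed Ilp3 was at −2.67, and InR, whose exons span 11367 bases, was at −0.87 and still called. Of 14 Dpp and AMPK genes 3 were lower (2 lower and 1 higher with the trend removed), namely shn (−1.05), dpp (−1.003) and Dad (−0.88). With the trend removed shn was at −0.29 and not called, while dpp (−0.62) and Dad (−0.64) stayed lower. Septate junction genes gave 5 lower of 15 as fitted and 1, bark, with the trend removed (−1.36 and −0.63). Of 16 enteroendocrine genes 2 were higher and 4 lower (1 and 2 with the trend removed), but their median was 0.03, with 8 positive and 8 negative. The 13 markers of enteroendocrine cells gave 2 higher and 1 lower, with a median of 0.30 (1 and 1 with the trend removed). The prohormone chaperone gene 7B2 was higher, with 41.8 and 43.9 CPM in Pngl+/- against 14.0 and 16.0 CPM in y w, and prospero (pros), the transcription factor that defines these cells, was lower, with 4.96 and 4.61 CPM in Pngl+/- against 14.8 and 18.3 CPM in y w. The exons of pros span 24892 bases, and it was at −1.79 as fitted and at −0.59 with the trend removed.

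Immune genes were mixed. Of 16 tested antimicrobial peptides 5 were higher and 2 lower, with a median log2 fold change of 0.11 (3 and 5, with a median of −0.30, once the length trend was removed), so the list had no direction that held under both fits. CecB (2.32, standard error 0.21) and Drsl2 (2.11, standard error 0.16) were higher, CecB with 6.95 and 5.63 CPM in Pngl+/- against 1.34 and 1.19 CPM in y w. Drosomycin (Drs) was lower, with 4.91 and 5.31 CPM in Pngl+/- against 16.4 and 15.9 CPM in y w (−1.66, standard error 0.10). The diptericins DptA and DptB, at the highest levels of the list, were not called (0.26 and −0.04). Of 11 peptidoglycan recognition proteins 2 were higher and 1 lower (1 and 2 with the trend removed). PGRP-SC2, an amidase that degrades peptidoglycan, had 400 and 416 CPM in Pngl+/-, against 100 and 105 CPM in y w (1.99, standard error 0.04), whereas its relative PGRP-SC1b had 321 and 356 CPM in Pngl+/-, against 673 and 730 CPM in y w (−1.05, standard error 0.06). PGRP-SA, a recognition receptor of the Toll pathway, was called at 0.72 as fitted, and was not called at 0.45 once the trend was removed or at 0.54 without y w replicate 1. In the Imd pathway Rel, its NF-kappaB factor, was lower (−0.72, standard error 0.05) and Fadd (0.95, standard error 0.10) and Uev1A (0.61, standard error 0.04) higher, of 19 tested; Rel and Uev1A were not called once the trend was removed, nor was Uev1A without Pngl+/- replicate 1 (0.583). The stress peptide gene TotA had 64.98 and 59.99 CPM in Pngl+/-, against 191 and 181 CPM in y w.

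Protein quality control and translation genes were mostly not called. None of 32 proteasome subunits was called in either direction as fitted or with the length trend removed, with medians of 0.19 and −0.06. Of 22 genes of endoplasmic reticulum folding and degradation 1, calreticulin (Calr), was higher, with 684 and 663 CPM in Pngl+/- against 448 and 436 CPM in y w, and its log2 fold change of 0.61 was just past the threshold. Without Pngl+/- replicate 1 it was 0.584 and with the length trend removed 0.49, and in neither case was Calr called. The median of 80 cytosolic ribosomal proteins was 0.27 as fitted, −0.09 without composition normalization and −0.01 with the length trend removed, and 3 of them were called higher as fitted, led by RpL29 (0.81). Of 24 replication and cell cycle genes 2 were lower, RnrL (−0.77) and CycB3 (−0.73), and 3 with the length trend removed.

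Markers of other tissues differed between the libraries as well. Fat body genes summed to 52959 and 50719 CPM in Pngl+/-, against 30406 and 30044 CPM in y w. Of the 6, the storage proteins Lsp1gamma (log2 fold change 0.99), Lsp2 (0.95), Lsp1beta (0.75) and Lsp1alpha were higher, while Fbp1 (−0.84) and Fbp2 (−0.88) were lower. Salivary glue genes summed to 6450 and 6334 CPM in Pngl+/-, against 3878 and 3808 CPM in y w, with Sgs7 (1.39), Sgs8 (1.62) and Sgs5 (0.77) higher and Sgs1 (−1.44) and Sgs3 (−0.63) lower. Sgs5 was not called with the length trend removed. The tracheal list summed to 86.9 and 88.5 CPM in Pngl+/-, against 190 and 199 CPM in y w. Only 2 of its 4 genes were tested, verm (−1.19) and pio (−1.01), and these held most of the sum. The visceral muscle list summed to 4250 and 4184 CPM in Pngl+/-, against 7429 and 7613 CPM in y w, with 9 of 10 lower (7 with the length trend removed). Hemocyte genes summed to 23.8 and 20.4 CPM in Pngl+/-, against 46.5 and 48.7 CPM in y w, with Hml (−1.53) and eater (−1.42) lower and NimC1 (1.87) higher. The part of attached tissue in the cuticle, muscle, lipid and ecdysone results was not tested.

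The pools held both sexes in unstated proportions. Yp3, a yolk protein gene, had 91.2 and 102 CPM in Pngl+/-, against 6.18 and 6.27 CPM in y w (log2 fold change 3.95, standard error 0.08). The X-linked noncoding RNAs roX1 and roX2 of male dosage compensation were higher too (0.62 and 1.46), though roX1 was at 0.531 and not called without Pngl+/- replicate 1. Of 13 tested genes of dosage compensation and sex determination, 3 were higher and 1 lower, with a median of −0.07 (5 and 0 with the length trend removed). The lower member was msl-1 (−0.75), which was not called with the trend removed. The list of testis genes had no tested member, and summed to 2.32 and 2.58 CPM in Pngl+/-, against 5.88 and 5.87 CPM in y w. The sperm leucyl aminopeptidases S-Lap1 and S-Lap7 were at 1.18 and 1.13 CPM, and at 1.18 and 1.23 CPM, in Pngl+/-, against 5.59 and 5.44 CPM, and 4.96 and 5.62 CPM, in y w. The part of sex ratio in any result was not tested.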

How the data were processed

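RNA from larval midguts was prepared with a stranded mRNA kit and sequenced in paired-end mode. The labels give 40 midguts per genotype and the methods another number. The authors trimmed the reads with cutadapt (1.4 in the submitters' processing notes), aligned them to dm6 with STAR 2.5.3 and deposited raw counts per gene over the collapsed exons of FlyBase annotation, without normalization or filter. Use of strand and of reads with several alignments is not given in the sources used here. Every value column matched a labelled sample. Positions and exonic lengths came from an Ensembl annotation of dm6, which holds 17582 of the 17713 genes.

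A model in edgeR 4.0.16 (R 4.3.3) was fitted to all 8 libraries with 1 mean per genotype, TMM factors and no block. Genes entered where 2 or more libraries reached 5 CPM. The quasi-likelihood test was used, with Benjamini-Hochberg adjustment over all tested genes. Alternatives were edgeR's likelihood ratio test, DESeq2 1.42.0, other scalings and filters, a block on replicate number, only 4 libraries, testing for changes beyond 1.5-fold, and each library left out. The length correction subtracted a lowess curve (span 0.3) of log2 CPM on log10 exonic length. Fits were checked on simulated counts with the same spread for every gene, changes balanced in direction and no length trend. That check does not cover the length trend or the dependence on scaling seen in these data. Totals were 20677050 to 24564935 counts in the 4 libraries compared. The 2 libraries of a genotype differed by more than counting error, with a mean chi-square per gene of 7.16 in Pngl+/- and 5.165 in y w. Intervals of count ratios cover counting error only.

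The genes named are label loci, the 12 largest changes in each direction with libraries that do not overlap, the 6 called genes with the largest rise and the 6 with the largest fall in CPM, and up to 3 called members per list and direction. Members and lists were chosen with earlier results of these data known.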

Additional observations from a re-analysis of the deposited data

How the results depend on the processing

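The counts of genes higher in Pngl+/- than y w and of genes lower in Pngl+/- than y w stayed within 1.5 times of 998 and 1345 under all alternatives except 2. Without composition normalization there were 447 higher and 2657 lower, and with no filter on low counts, where more genes were tested, 1686 higher and 2389 lower. Leaving out each library in turn gave 1012 to 1038 higher and 1351 to 1381 lower, with the spread pooled over the libraries left and the lone library assumed to vary like the others. The replicate block gave 997 higher and 1341 lower. Nothing in the labels ties the numbers to shared batches. Same-numbered deviations correlated at −0.03 for Pngl+/- and y w, at 0.38 for Pngl+/- and Pngl Dp/+, at −0.20 for y w and Pngl Dp/+, and between −0.07 and 0.01 for the other pairs of genotypes. Of the 217 named genes that were called, the block lost none, leaving out a library lost 2 to 7, no composition normalization lost 31, and removal of the exonic length trend lost 34 and turned the log2 fold change of apolpp to 0.053. With 2 libraries per genotype the spread rests on all 8, and genes below 5 CPM were seldom tested.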
